A study of Homo sapiens with 24 samples.

Results

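The genes described here are 45 genes of cytokines, acute-phase proteins and innate immune receptors, taken from a count table of 60675 Ensembl identifiers. They were chosen by symbol, and all 45 matched an identifier in the table. They comprise 7 CXC chemokines, 3 CC chemokines, 10 interleukins and other cytokines, 7 NF-kB components and targets, 7 acute-phase and complement genes, 4 cytokine receptor and feedback genes, 2 chemotactic receptors, and 5 Toll-like receptor genes with their adaptor. RNA was sequenced from MIA PaCa-2, a cell line from a human pancreatic carcinoma, in 8 groups of 3 wells (24 libraries). C/EBPδ-inducible cells (labelled genotype tet-on CEBPD) carry a Tet-On construct that drives the CEBPD cDNA when doxycycline is added, and they are a pool of 3 clones that also express mVenus. CTRL cells (tet-on CTRL) carry the construct without the cDNA and express mCherry. Both lines were sampled at 0, 8, 24 and 48 h of doxycycline at 2 µg/mL. The labels list that dose at 0 h too, whereas the methods describe these cells as untreated.

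C/EBPδ, a CCAAT/enhancer-binding protein, is known from the acute-phase response, in which cytokines such as IL-6 and IL-1 switch on a set of plasma protein and defence genes. NF-kB is the other main transcription factor of this response. It is held in the cytoplasm by inhibitors such as IκBα (the NFKBIA product) until cytokine or Toll-like receptor signals through the adaptor MyD88 release it, and several of its target genes encode its own subunits and inhibitors. Cytokines of the IL-6 family signal through the receptor chain gp130 (IL6ST) and STAT3, and SOCS3 is their feedback inhibitor. Pancreatic carcinoma cells are known to secrete chemokines that attract neutrophils, among them CXCL8.

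The 6 genes CXCL8, CXCL6, CXCL1, CXCL5, CXCL3 and CXCL2 lie in this order within 359 kb of chromosome 4 (chr4:73740519-74099196, GRCh38). Those that differed between the lines at each time did so in both directions, CXCL1 lower and CXCL2, CXCL5 and CXCL8 higher in the inducible line. CXCL6 was not called in any comparison, and CXCL3 was called between the lines at 8 h only. The letters GGAANTTCC, a form of the sequence that NF-kB is known to bind, occur on either strand within 250 bases before the RefSeq start (GRCh38.p14) of all 6, and of NFKBIA, NFKB1 and ICAM1. That is 9 of the 33 members with a promoter in the table used, and 227 of all 27305 promoters (0.831%) hold the letters. Several members were listed because they are documented NF-kB targets, so that the share among them is a description. The 60 bases from 110 to 51 bases before the start are shown for 5 genes of the cluster and for NFKBIA, on each gene's own strand, so that they can be set beside the values of the same genes, and capitals mark the match.
CXCL8: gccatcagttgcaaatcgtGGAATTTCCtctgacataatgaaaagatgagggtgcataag
CXCL6: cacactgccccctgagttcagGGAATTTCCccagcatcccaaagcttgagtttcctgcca
CXCL1: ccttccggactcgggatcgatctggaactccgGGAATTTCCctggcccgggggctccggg
CXCL5: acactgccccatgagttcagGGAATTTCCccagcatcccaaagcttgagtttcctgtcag
CXCL2: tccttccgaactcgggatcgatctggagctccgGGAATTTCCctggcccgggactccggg
NFKBIA: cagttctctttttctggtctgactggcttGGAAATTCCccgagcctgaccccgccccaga
The CXCL8 window is chr4:73740459-73740518 on the plus strand. The CXCL6 window is chr4:73836568-73836627 on the plus strand. The CXCL1 window is chr4:73869283-73869342 on the plus strand. The CXCL5 window is chr4:73998728-73998787 on the minus strand. The CXCL2 window is chr4:74099246-74099305 on the minus strand. The NFKBIA window is chr14:35404800-35404859 on the minus strand. The match begins 77 bases before the start in CXCL2 and 91 bases before it in CXCL8. CXCL1, which was lower in C/EBPδ-inducible cells, and CXCL2, CXCL5 and CXCL8, which were higher, all hold it. A looser NF-kB form, GGGRNNYYCC (R is A or G, Y is C or T), was searched too. It was found in the promoters of 16 of 33 members, TNFAIP3 and BIRC3 among them but not CXCL8 or ICAM1, and in 9.57% of all promoters. That share is a description as well. The letters TTGCNNAA, part of the sequence known for C/EBP factors, were found in the promoters of CXCL2, IL1B, IL6, LCN2, PTX3 and TLR3 (6 of 33 members), and in 9.13% of all promoters. Near matches were not counted. The CXCL8 window above holds ttgcaaat, which differs from these letters in the last letter only, so a promoter missing from this list may still hold a related sequence.

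The libraries held between 12731237 and 22598595 counts (median 18959363.5), and the members together took between 0.0675 and 0.152% of a library. CEBPD itself had 22 to 84 counts in CTRL libraries and 355 to 512 in C/EBPδ-inducible libraries at 0 h, which rose to between 3074 and 6745 with doxycycline, and construct and endogenous transcripts are not separated. The inducible line thus differed in CEBPD before doxycycline, and the effect of that expression and of the clones pooled cannot be told apart at 0 h. Each line is a single pool of cells, so that line and construct cannot be told apart in the line differences at 8, 24 and 48 h either. The interactions compare the same pools. Of the markers, KRT8, KRT18 and VIM, expressed by this carcinoma line, were present in both lines, while the summed level of 4 epithelial genes (KRT8, KRT18, KRT19 and EPCAM) was 2064 to 2948 CPM (counts scaled with TMM to a common library size) in CTRL and 113 to 207 CPM in C/EBPδ-inducible libraries. The leukocyte genes PTPRC, CD3E, CSF1R and MS4A1 were at the floor in both lines, and all 6 leukocyte genes summed to between 1.59 and 19.6 CPM in CTRL and between 0.210 and 5.91 CPM in inducible libraries. The 6 fibroblast genes summed to between 449 and 690 CPM in CTRL and between 137 and 256 CPM in inducible libraries. COL1A2, a collagen chain, made up most of that sum (525 and 151 CPM at 24 h), while 3 of the 4 fibroblast genes tested at 24 h were higher in the inducible line, and DCN was at the floor in both lines. The 3 endothelial genes summed to at most 0.418 CPM in CTRL and 2.72 CPM in inducible libraries, with VWF at the floor in both and CDH5 higher in the inducible line at 0 h (log2 2.82). The part of these marker differences in the differences between the lines reported here was not tested. Wells of a group differed most at 8 h in CTRL cells, where replicates 1 and 3 had a chi-square of 16.7 per gene against 1.66 for the closest pair of wells in the data. Inducible replicate 3 at 8 h, the library with the fewest counts (12731237), stood apart too. It had 12.3 and 12.5 against replicates 1 and 2, which had 2.34 between them.

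Which members can be read depends on their counts. A group was called at the floor when each of its libraries had 3 counts or fewer. IL6, the main inducer of the acute-phase response, and CSF2 (GM-CSF) were at the floor in all 24 libraries, with at most 2 counts and 1 count. Another 24 members were above the floor in all 8 groups and 19 in 1 to 7 groups, and 60.1% of all identifiers in the table were at the floor throughout. CCL2, CCL20, CFB, CSF2, ICAM1, IL1A, IL6, SAA2 and TLR4 never passed the filter on low counts, which left 36 members tested in at least 1 of 13 comparisons and 22 tested in all. Levels are compared between groups and not between genes, since counts depend on gene length.

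Between the lines, C/EBPδ-inducible cells had more transcript of most tested NF-kB components and targets, and less of a smaller group of members. A member was called at an FDR of 0.01 over all genes tested. At 0 h, C/EBPδ-inducible cells had 15 members higher and 5 lower of 27 tested, against 20.8% (higher) and 24.5% (lower) of all tested genes. At 8 h, 17 were higher and 5 lower of 29 (14.7 and 17.9% of all genes). At 24 h, 18 were higher and 8 lower of 33 (22.1 and 25.7%), and at 48 h, 19 and 7 of 34 (17.8 and 20.8%). The share of members called lower was thus near or below that of all genes at each time. The median log2 fold change of the tested members was 0.49, 0.68, 0.61 and 0.72 at the 4 times, against 0.01 at 24 h over all genes. A member that passed the filter only through the group where it was high had to differ. These counts, and the p-values of such members, therefore describe the genes and lend them no support. BIRC3, CCL5, CSF1, CXCL2, CXCL5, CXCL8, IL1B, LIF, NFKB2, NFKBIA, RELB and TNFAIP3 were higher at all 4 times, and CSF3, CXCL1, CXCL16, MYD88 and SERPINA3 were lower at all 4.

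Later times differ from 0 h in time in culture as well as in doxycycline, and the samples hold no untreated cells at those times, so that both cannot be told apart within a line. Within CTRL cells, 1 member was higher and 2 were lower of 25 at 8 h (1.08 and 1.01% of all genes), 2 and 5 of 26 at 24 h (3.36 and 3.79%), and 6 and 5 of 27 at 48 h (15.6 and 15.3%), each against 0 h. The 3 calls at 8 h (CXCL1, NFKB2 and SOCS3) were lost without CTRL replicate 2 at 8 h and without each of the 3 replicates at 0 h. Within C/EBPδ-inducible cells, 11 were higher and 5 lower of 29 at 8 h (15.6 and 16.8% of all genes), 11 and 8 of 30 at 24 h (7.78 and 8.64%), and 14 and 7 of 33 at 48 h (19.5 and 19.9%). The comparisons of 1 line share its 0 h libraries. The interaction asks whether the change from 0 h differed between the lines. It was called for 1 member upward and 0 downward of 31 at 8 h (1.05 and 1.04% of all genes), 5 and 4 of 33 at 24 h (3.24 and 3.31%), and 4 and 3 of 35 at 48 h (3.03 and 3.02%). These 17 calls fell on 10 members, CXCL2, CXCL5, CXCL8, NFKBIA, BIRC3, IL6R, IL6ST, SOCS3, TLR5 and TLR6. Without CTRL replicate 3 at 8 h the interaction at 8 h was called for 6 members, and without CTRL replicate 1 for 3.

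**Figure D1:**
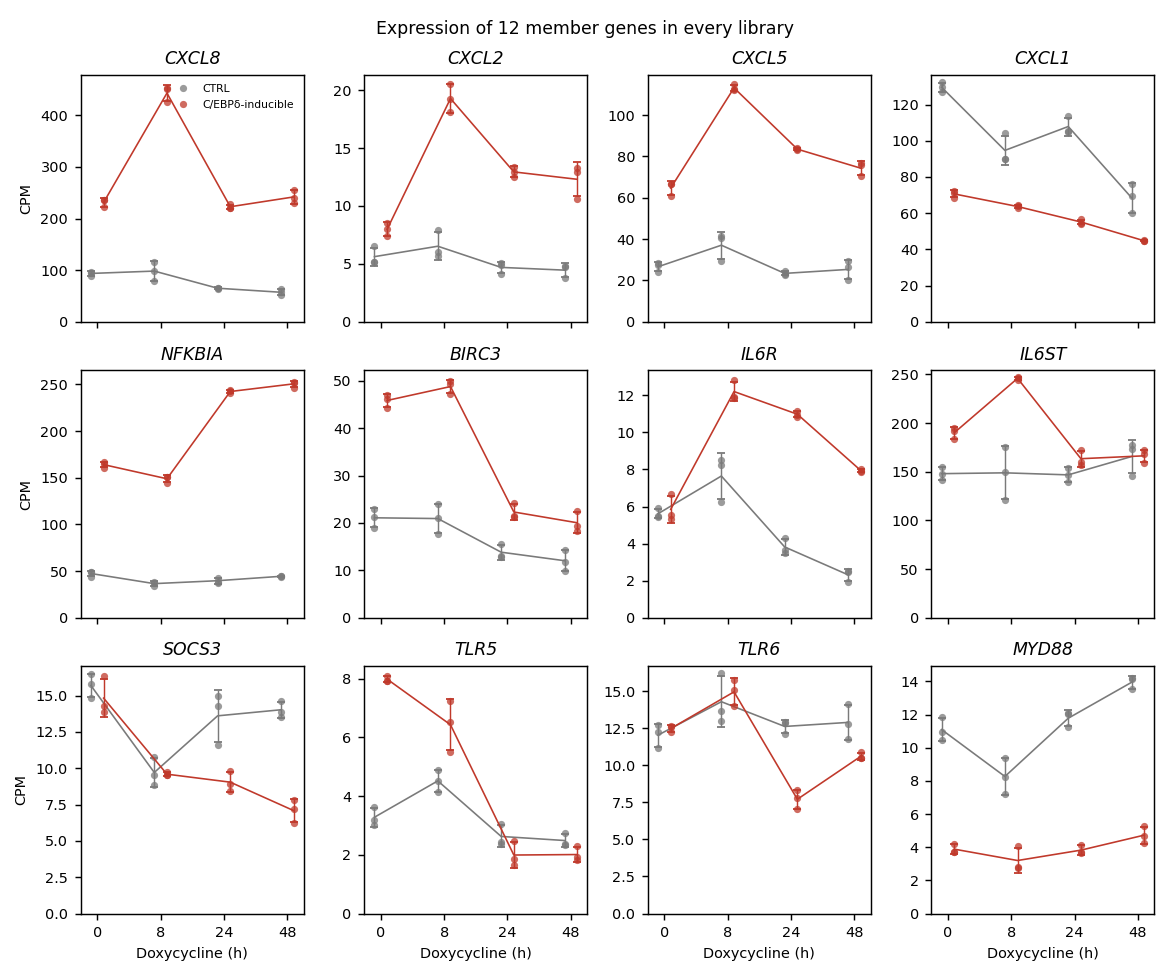
Points are the CPM (TMM-scaled) of each of the 3 libraries per group for 12 member genes, lines join the group means and bars are the SD, with CTRL cells in grey and C/EBPδ-inducible cells in red; the 4 times are evenly spaced on the x axis although the hours are not. CXCL8, CXCL2, CXCL5, NFKBIA and BIRC3 lie higher and CXCL1 and MYD88 lower in the inducible line at every time, and TLR5 starts higher and ends near the CTRL values.

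Among the CXC chemokines, the neutrophil attractants CXCL8, CXCL5 and CXCL2 were higher in C/EBPδ-inducible cells at each time, and the related CXCL1 was lower. CXCL8 (ENSG00000169429) had 97.2, 89.0 and 95.0 at 0 h, 79.0, 99.1 and 117 at 8 h, 66.3, 65.6 and 63.4 at 24 h and 51.0, 62.6 and 58.1 at 48 h (CPM, CTRL cells). The C/EBPδ-inducible libraries had 222, 236 and 235 at 0 h, 451, 425 and 452 at 8 h, 221, 228 and 220.0 at 24 h and 229.8, 240.4 and 255 at 48 h. All 12 inducible libraries exceeded all 12 CTRL libraries, and the values at 8 h stood highest. The log2 difference was 1.29 ± 0.04 (SE) at 0 h and 1.77 ± 0.04 at 24 h (adjusted p = 4.2e-25 and 6.7e-35). CTRL cells lost CXCL8 by 24 h (log2 -0.52 ± 0.04, adjusted p = 1.6e-11), whereas in the inducible line it rose at 8 h (log2 0.93 ± 0.03) and stood at -0.05 ± 0.03 against 0 h at 24 h (adjusted p = 0.29). The interaction was 0.48 ± 0.05 at 24 h and 0.76 ± 0.08 at 48 h (adjusted p = 1.2e-09 and 2e-06), and the call at 24 h was lost in a model of all 24 libraries (adjusted p = 0.043).

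CXCL2 (ENSG00000081041) in CTRL libraries stood at 5.15, 5.20 and 6.53 at 0 h, 5.66, 7.90 and 6.02 at 8 h, 4.89, 5.06 and 4.15 at 24 h and 3.79, 4.76 and 4.85 at 48 h (CPM). Its level in C/EBPδ-inducible libraries was 8.04, 8.56 and 7.37 at 0 h, 18.1, 20.5 and 19.2 at 8 h, 13.4, 13.0 and 12.5 at 24 h and 10.6, 13.0 and 13.3 at 48 h. The groups did not overlap at any time, but the distance was small at 0 h and wide from 8 h on. CXCL2 was the only member with an interaction called at all 3 times, with log2 values of 1.06 ± 0.18, 0.96 ± 0.16 and 0.95 ± 0.18 at 8, 24 and 48 h (adjusted p = 0.001, 1.6e-05 and 0.00073). In CTRL cells it was not called against 0 h at any time, and in the inducible line it rose by 1.26 ± 0.09 on the log2 scale at 8 h (adjusted p = 2e-15).

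CXCL5 (ENSG00000163735) had 27.6, 24.0 and 28.3 at 0 h, 29.6, 41.3 and 40.3 at 8 h, 23.0, 24.6 and 22.7 at 24 h and 20.05, 29.3 and 26.7 at 48 h in CTRL libraries (CPM). In C/EBPδ-inducible libraries the values were 60.8, 66.6 and 66.8 at 0 h, 112, 115 and 113 at 8 h, 83.5, 83.1 and 83.9 at 24 h and 75.6, 70.6 and 76.7 at 48 h. Every inducible library was above every CTRL library. The line difference was 1.27 ± 0.06 at 0 h and 1.83 ± 0.05 at 24 h on the log2 scale (adjusted p = 1.1e-18 and 4.1e-31). The interaction was called at 24 h (0.56 ± 0.08, adjusted p = 3.1e-07) and not at 8 or 48 h (0.33 ± 0.14 and 0.26 ± 0.15), and a model of all 24 libraries lost it at 24 h too (adjusted p = 0.037).

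CXCL1 and CXCL16 ran the other way. CXCL1 averaged 129.6 ± 2.58 CPM (SD, n = 3) at 0 h and 108 ± 4.97 at 24 h in CTRL cells, and 70.6 ± 1.90 and 55.1 ± 1.25 in C/EBPδ-inducible cells, a log2 difference of -0.89 ± 0.04 at 0 h and -0.97 ± 0.04 at 24 h (adjusted p = 2.2e-20 and 1.5e-23). It was lower at 8, 24 and 48 h than at 0 h in both lines, and the interaction was not called at any time (adjusted p between 0.021 and 0.43). CXCL16, a membrane-bound chemokine and scavenger receptor whose exons overlap MED11 and ZMYND15 on the other strand, rose in both lines by 48 h (log2 0.86 ± 0.09 in CTRL and 1.02 ± 0.16 in inducible cells) and averaged 13.6 ± 1.04 and 3.88 ± 0.57 CPM at 24 h, with log2 differences between the lines of -2.11 ± 0.13 at 0 h and -1.94 ± 0.10 at 48 h. CXCL3 stood between 1.14 and 2.93 CPM in the group means and was higher at 8 h only (log2 0.89 ± 0.23, adjusted p = 0.0059), a call lost without each of 4 libraries (CTRL replicate 2, and each of the 3 inducible replicates, at 8 h). CXCL6 had group means of at most 1.32 CPM and was not called in any comparison. CXCL1, CXCL2 and CXCL3 are close copies, so that reads may have been shared or lost between them.

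The CC chemokines were low. CCL5 (RANTES, a T cell and monocyte attractant) had 0, 0 and 1 at 0 h, 9, 3 and 4 at 8 h, 3, 3 and 2 at 24 h and 5, 3 and 3 at 48 h counts in CTRL libraries and 43, 48 and 33 at 0 h, 57, 53 and 40 at 8 h, 49, 53 and 68 at 24 h and 39, 69 and 52 at 48 h in C/EBPδ-inducible libraries. The lines did not overlap, and the inducible libraries varied little over the times. CCL5 was at least 12.6-fold higher at 0 h and at least 18.3-fold higher at 24 h (against a floor of 3 counts per CTRL library), and it was not called against 0 h within the inducible line. CCL20 had at most 4 counts in any library.

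**Figure D2:**
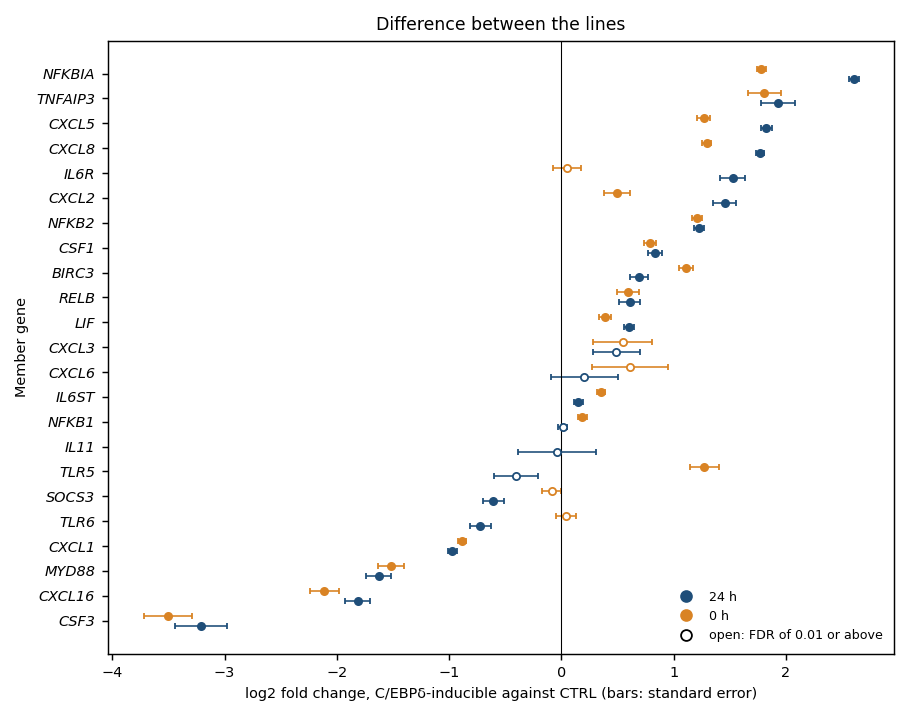
Points are log2 fold changes of C/EBPδ-inducible against CTRL cells at 24 h (blue) and 0 h (orange), bars the standard error, for the 23 members that were above the floor in all 8 groups and tested at 24 h; filled points passed an FDR of 0.01. NFKBIA, TNFAIP3, CXCL5 and CXCL8 lie furthest to the right at 24 h, and CSF3, CXCL16 and MYD88 furthest to the left at both times, IL11 having no value at 0 h.

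Of the 7 NF-kB components and targets, 6 were higher at 0 h, against 20.8% of all tested genes, and ICAM1 was not tested. NFKBIA, which encodes the inhibitor IκBα, had 48.9, 43.7 and 49.4 at 0 h, 33.9, 38.6 and 37.0 at 8 h, 37.2, 38.7 and 43.1 at 24 h and 44.9, 43.6 and 44.6 at 48 h in CTRL libraries (CPM). C/EBPδ-inducible libraries had 161, 165 and 167 at 0 h, 151, 145 and 151 at 8 h, 244, 241 and 243 at 24 h and 253, 247 and 252 at 48 h. The lines were far apart at each time, and the inducible values at 24 and 48 h stood above those at 0 and 8 h. Its log2 difference grew from 1.78 ± 0.04 at 0 h to 2.60 ± 0.04 at 24 h (adjusted p = 8.9e-28 and 1.8e-38). The interaction was 0.83 ± 0.06 at 24 h and 0.69 ± 0.06 at 48 h (adjusted p = 9.3e-14 and 1.6e-08), and it was not called at 8 h (0.23 ± 0.08).

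BIRC3 (cIAP2), an inhibitor of apoptosis, fell in both lines. CTRL libraries held 21.3, 19.0 and 22.9 at 0 h, 17.8, 21.0 and 24.0 at 8 h, 15.6, 12.8 and 13.1 at 24 h and 9.87, 14.4 and 11.9 at 48 h (CPM). C/EBPδ-inducible libraries held 47.1, 44.4 and 46.2 at 0 h, 47.3, 49.2 and 49.9 at 8 h, 21.4, 24.2 and 21.4 at 24 h and 18.2, 19.4 and 22.5 at 48 h. The values at 24 and 48 h were below those at 0 and 8 h, and the inducible line stayed above CTRL cells. At 24 h the log2 change was -1.03 ± 0.06 in the inducible line and -0.62 ± 0.08 in CTRL cells, an interaction of -0.41 ± 0.10 (adjusted p = 0.005). That call was lost without each of 6 libraries (CTRL replicate 2 at 0 h and 1 at 24 h, inducible replicates 1 and 3 at 0 h and at 24 h) and in a model of all 24 libraries.

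TNFAIP3 (A20, which removes ubiquitin from NF-kB signalling proteins) averaged 1.85 ± 0.36 CPM in CTRL and 7.13 ± 0.66 in C/EBPδ-inducible cells at 24 h, a log2 difference of 1.93 ± 0.15 that was already 1.81 ± 0.15 at 0 h. NFKB2, the p100 and p52 subunit, averaged 41.6 ± 1.32 and 97.3 ± 3.37 CPM at 24 h (log2 1.22 ± 0.04), and RELB, its partner, 10.3 ± 1.21 and 15.8 ± 1.97 (log2 0.61 ± 0.09). NFKB1, the p105 and p50 subunit, was higher at 0 and 8 h (log2 0.19 ± 0.04 and 0.28 ± 0.06) and not called at 24 h (0.01 ± 0.04, adjusted p = 0.83) or 48 h (0.18 ± 0.06). None of TNFAIP3, NFKB2, RELB and NFKB1 had an interaction called at 8, 24 or 48 h. The NFKB1 call at 8 h was lost without CTRL replicate 2 and without inducible replicates 1 and 3 at that time, and the RELB call at 48 h (0.39 ± 0.09) without CTRL replicate 3 and inducible replicates 1 and 2.

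**Figure D3:**
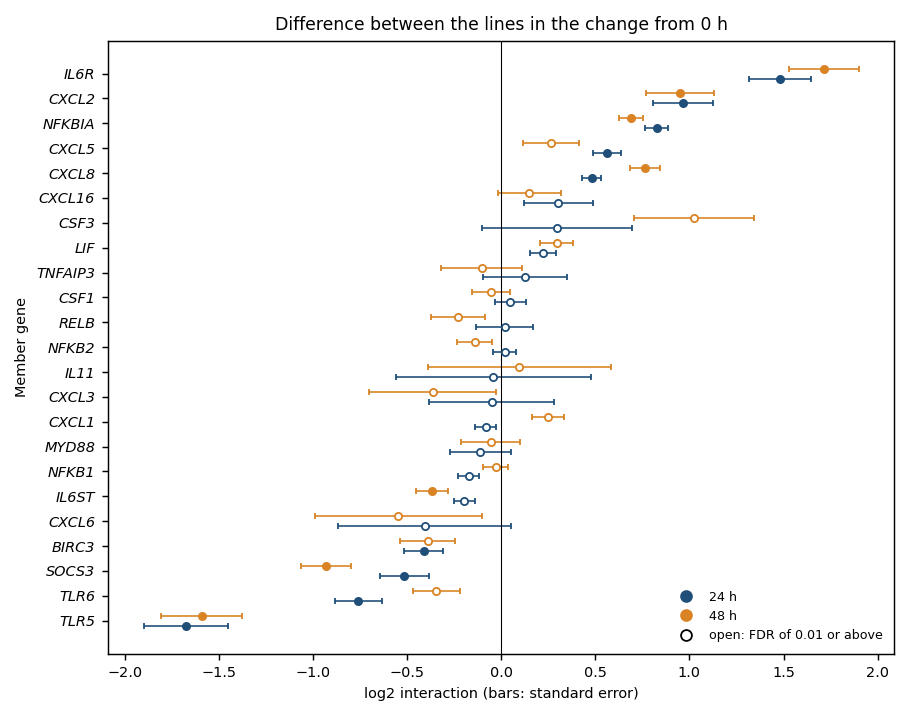
Points are log2 interactions, the change from 0 h in C/EBPδ-inducible cells minus that in CTRL cells, at 24 h (blue) and 48 h (orange), with the standard error as bars, for the 23 members above the floor in all 8 groups and tested at 24 h; filled points passed an FDR of 0.01. IL6R, CXCL2 and NFKBIA lie to the right and TLR5 and SOCS3 to the left at both times, while TNFAIP3, NFKB2, RELB and CXCL1 are open at both times.

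Of the interleukins and colony-stimulating factors, IL1B rose in the inducible line. IL1B, the secreted form of interleukin 1, had 0, 3 and 0 at 0 h, 0, 2 and 2 at 8 h, 1, 2 and 0 at 24 h and 0, 0 and 1 at 48 h counts in CTRL libraries. In C/EBPδ-inducible libraries it had 18, 20 and 25 at 0 h, 31, 42 and 50 at 8 h, 63, 73 and 64 at 24 h and 87, 112 and 98 at 48 h. Each CTRL group was at the floor, and the inducible counts rose over the times. IL1B was at least 6.51-fold higher at 0 h, 15.6-fold at 8 h, 21.7-fold at 24 h and 32.0-fold at 48 h, and within the inducible line it rose by 2.23 ± 0.19 on the log2 scale at 48 h (adjusted p = 4.3e-13). The interaction cannot be read with CTRL at the floor, and it was not called. IL18, an IL-1 family cytokine, had 3, 2 and 3 at 0 h, 1, 2 and 6 at 8 h, 6, 4 and 3 at 24 h and 4, 3 and 4 at 48 h counts in CTRL libraries and 7, 12 and 14 at 0 h, 8, 17 and 6 at 8 h, 28, 29 and 18 at 24 h and 25, 31 and 28 at 48 h in C/EBPδ-inducible libraries. It was higher in the inducible line at 24 and 48 h (log2 2.46 ± 0.41 and 2.85 ± 0.34) and not tested between the lines at 0 and 8 h. IL18 passed the filter through the inducible group alone, so that these differences are descriptions.

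CSF3 (G-CSF), the growth factor of neutrophils, was the cytokine that was lower. CTRL libraries had 117, 86 and 112 at 0 h, 122, 91 and 113 at 8 h, 106, 107 and 87 at 24 h and 106, 88 and 100 at 48 h counts, and C/EBPδ-inducible libraries had 8, 13 and 9 at 0 h, 10, 14 and 17 at 8 h, 7, 16 and 10 at 24 h and 15, 20 and 20 at 48 h. The lines were far apart at each time, with no overlap. The log2 difference was -3.50 ± 0.22 at 0 h, -3.21 ± 0.23 at 24 h and -2.46 ± 0.18 at 48 h (adjusted p = 1.4e-15, 1e-15 and 3.3e-08). At 0 and 24 h CSF3 passed the filter through CTRL cells alone, so that its differences and p-values at those times are descriptions. LIF, of the IL-6 family, was modestly higher at each time, at 44.5 ± 1.04 and 68.0 ± 1.10 CPM at 24 h (log2 0.60 ± 0.04), and it rose in both lines with no interaction called (0.22 ± 0.07 at 24 h, adjusted p = 0.024). CSF1 (M-CSF) was higher too, at 21.4 ± 0.19 and 38.3 ± 2.67 CPM at 24 h (log2 0.83 ± 0.06), and its call at 8 h (0.36 ± 0.10) was lost without CTRL replicate 2 or 3 or any inducible replicate. IL11 and IL32 were tested and never called, with group means of at most 1.10 and 0.65 CPM.

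Acute-phase and complement genes were low and did not move together. PTX3, a long pentraxin, had 4, 1 and 2 at 0 h, 1, 1 and 1 at 8 h, 0, 1 and 3 at 24 h and 4, 2 and 1 at 48 h counts in CTRL and 3, 7 and 4 at 0 h, 3, 7 and 4 at 8 h, 23, 18 and 23 at 24 h and 19, 20 and 16 at 48 h in C/EBPδ-inducible libraries. It was at least 6.93-fold higher in the inducible line at 24 h and rose within that line by 2.05 ± 0.40 on the log2 scale. PTX3 passed the filter through the group where it was high alone, so that the difference is a description. SERPINA3 (α1-antichymotrypsin), a classical acute-phase inhibitor of proteases, had 19, 20 and 17 at 0 h, 20, 12 and 22 at 8 h, 25, 21 and 30 at 24 h and 150, 113 and 125 at 48 h counts in CTRL and 3, 1 and 1 at 0 h, 1, 5 and 1 at 8 h, 4, 8 and 5 at 24 h and 31, 41 and 29 at 48 h in inducible libraries. It was lower in the inducible line at each time (log2 -2.18 ± 0.38 at 24 h). At 0, 8 and 24 h it passed the filter through CTRL cells alone, so that the differences at those times are descriptions. It was highest at 48 h in both lines. The rise was 2.71 ± 0.17 on the log2 scale in CTRL cells and at least 11.2-fold in the inducible line. C3, the central complement protein, had 2.64 ± 0.34 CPM at 48 h in the inducible line and was there at least 16.4-fold higher, and it was higher at 8 h too (log2 2.07 ± 0.39, lost in a model of all 24 libraries), but it was not called at 0 or 24 h, when CTRL replicate 3 had 38 and 33 counts against 2 to 8 in the other CTRL wells of these times. SAA1 had 13, 13 and 30 counts at 48 h in the inducible line and was at least 6.30-fold higher, while its rise from 0 h was lost without inducible replicate 3. SAA2 and CFB had at most 8 and 5 counts, and LCN2 was tested and never called.

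Of the IL-6 receptor chains, IL6R was not called apart at 0 h and was higher in the inducible line at later times, whereas IL6ST was higher from 0 h and not called apart at 48 h. IL6R, the ligand-binding chain, had 5.49, 5.44 and 5.90 at 0 h, 8.22, 6.22 and 8.50 at 8 h, 4.31, 3.65 and 3.50 at 24 h and 1.94, 2.52 and 2.48 at 48 h in CTRL libraries (CPM). The C/EBPδ-inducible values were 6.66, 5.54 and 5.34 at 0 h, 11.9, 12.8 and 11.9 at 8 h, 11.2, 11.0 and 10.8 at 24 h and 7.92, 8.04 and 7.88 at 48 h. The lines overlapped at 0 h and did not overlap later, with CTRL cells lower at 24 and 48 h than at 0 h and the inducible line higher. The log2 difference was 0.05 ± 0.13 at 0 h (adjusted p = 0.78) and 1.52 ± 0.11 at 24 h (adjusted p = 1.9e-15). The interaction was 1.48 ± 0.17 at 24 h and 1.71 ± 0.19 at 48 h (adjusted p = 4.1e-09 and 3.1e-07).

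SOCS3 moved the opposite way, with 16.5, 14.8 and 15.8 at 0 h, 10.8, 9.51 and 8.84 at 8 h, 11.6, 14.3 and 15.0 at 24 h and 14.6, 13.6 and 13.9 at 48 h in CTRL libraries (CPM). The inducible libraries had 13.8, 16.3 and 14.3 at 0 h, 9.51, 9.53 and 9.74 at 8 h, 9.80, 8.91 and 8.41 at 24 h and 7.81, 6.27 and 7.18 at 48 h. Both lines were lower at 8 h, after which CTRL cells came back toward their level at 0 h and the inducible line did not. The interaction was -0.51 ± 0.13 at 24 h (adjusted p = 0.005) and -0.93 ± 0.13 at 48 h (adjusted p = 1.9e-05). The call at 24 h was lost with DESeq2, in a model of all 24 libraries and without each of 7 libraries (CTRL replicates 2 and 3 and inducible replicate 2 at 0 h, and replicates 2 and 3 of both lines at 24 h).

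IL6ST, the shared gp130 chain, had 155, 141 and 148 at 0 h, 121, 149.6 and 176 at 8 h, 154, 147 and 139 at 24 h and 146, 178 and 173 at 48 h in CTRL libraries (CPM). It had 183, 195 and 192 at 0 h, 248, 244 and 246 at 8 h, 157, 173 and 160.4 at 24 h and 159, 168 and 172 at 48 h in C/EBPδ-inducible libraries. The inducible values stood highest at 8 h and met the CTRL values by 48 h. The interaction was called at 48 h (-0.37 ± 0.08, adjusted p = 0.0082), and it was lost in a model of all 24 libraries and without each of 10 of the 12 libraries in that fit, all but CTRL replicate 1 at 0 h and at 48 h.

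IL23R, a receptor of T cells and innate lymphoid cells for IL-23, appeared in CTRL cells. It had 0, 1 and 0 at 0 h, 2, 1 and 6 at 8 h, 82, 100 and 94 at 24 h and 235, 216 and 205 at 48 h counts in CTRL libraries. C/EBPδ-inducible libraries had 0, 0 and 0 at 0 h, 0, 0 and 0 at 8 h, 0, 0 and 1 at 24 h and 0, 0 and 0 at 48 h. The CTRL wells agreed closely at 24 and 48 h, and no inducible library had more than 1 count. IL23R rose in CTRL cells at least 26.4-fold at 24 h and 69.8-fold at 48 h against 0 h, and it was at least 31.3-fold and 74.2-fold lower in the inducible line at those times. With the inducible line at the floor throughout, the interaction was not called.

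**Figure D4:**
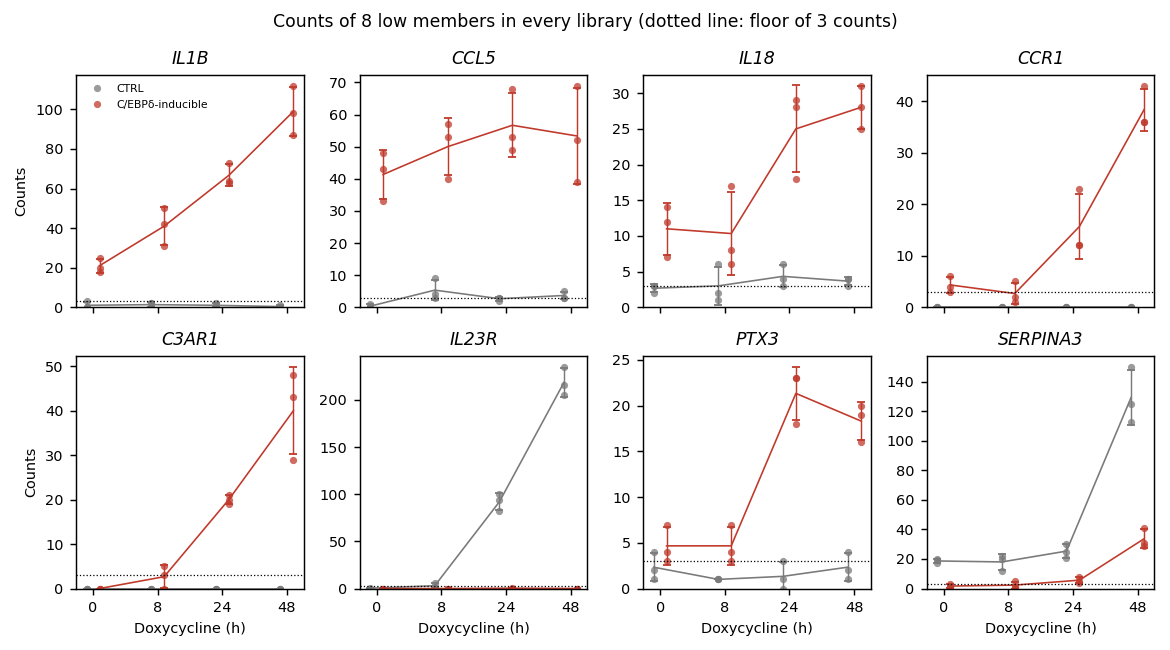
Points are raw counts in each library for 8 low members, with group means joined by lines, bars for the SD, CTRL cells in grey, C/EBPδ-inducible cells in red and the floor of 3 counts as a dotted line; totals per library differ. IL1B, CCR1, C3AR1 and PTX3 rise in the inducible line with CTRL near the floor, whereas IL23R rises in CTRL cells alone, and SERPINA3 at 48 h in both lines.

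The chemotactic receptors CCR1 (for CCL3 and CCL5) and C3AR1 (for the complement fragment C3a) are known from myeloid cells. CCR1 had 0 counts in all 12 CTRL libraries and 4, 3 and 6 at 0 h, 2, 5 and 1 at 8 h, 23, 12 and 12 at 24 h and 36, 43 and 36 at 48 h in C/EBPδ-inducible libraries. C3AR1 likewise had 0 counts in all 12 CTRL libraries and 0, 0 and 0 at 0 h, 5, 3 and 0 at 8 h, 19, 20 and 21 at 24 h and 48, 43 and 29 at 48 h in inducible libraries. Both were at or near the floor up to 8 h and rose at 24 and 48 h. CCR1 was at least 5.16-fold and 12.4-fold higher than in CTRL cells at 24 and 48 h, and C3AR1 at least 6.49-fold and 13.0-fold. Against 0 h in the inducible line, CCR1 rose by 3.11 ± 0.35 on the log2 scale at 48 h and C3AR1 at least 13.5-fold. Both passed the filter through the later group alone, so that these rises are descriptions. PTPRC, the pan-leukocyte gene, was at the floor in these libraries. The rise of CCR1 at 24 h (1.71 ± 0.47) was lost without inducible replicates 1 or 2 at 0 h or replicate 1 at 24 h, with DESeq2 and in a model of all 24 libraries.

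TLR5 and TLR6 fell in the inducible line at 24 h (log2 -1.99 ± 0.14 and -0.69 ± 0.09). TLR5, the receptor for flagellin, had 3.64, 3.17 and 3.03 at 0 h, 4.53, 4.13 and 4.90 at 8 h, 2.44, 3.06 and 2.38 at 24 h and 2.74, 2.35 and 2.37 at 48 h in CTRL libraries (CPM). The inducible libraries had 8.10, 7.92 and 7.93 at 0 h, 7.25, 5.52 and 6.52 at 8 h, 1.65, 2.48 and 1.85 at 24 h and 1.81, 2.29 and 1.93 at 48 h. At 0 h the inducible line stood above CTRL cells (log2 1.27 ± 0.13, adjusted p = 2.2e-10), and at 24 and 48 h the lines were not called apart (-0.41 ± 0.20 and -0.30 ± 0.19, adjusted p = 0.076 and 0.21). The interaction was -1.68 ± 0.23 at 24 h and -1.59 ± 0.21 at 48 h (adjusted p = 2.8e-07 and 7.9e-06). TLR6, a partner of TLR2 for lipopeptides, had 12.2, 11.2 and 12.7 at 0 h, 13.0, 13.6 and 16.2 at 8 h, 12.1, 12.9 and 12.8 at 24 h and 12.8, 14.1 and 11.7 at 48 h in CTRL libraries (CPM). Its inducible values were 12.6, 12.6 and 12.2 at 0 h, 15.8, 15.1 and 14.0 at 8 h, 8.30, 7.77 and 7.05 at 24 h and 10.5, 10.5 and 10.9 at 48 h. The lines overlapped at 0 and 8 h and not at 24 and 48 h. They were called apart at 24 h alone (log2 -0.72 ± 0.09, adjusted p = 1e-08), and the interaction was called at 24 h (-0.76 ± 0.13, adjusted p = 1.5e-05) and not at 48 h (-0.35 ± 0.12, adjusted p = 0.078). The exons of TLR6 overlap those of the close copy TLR1 on the same strand, so reads may be shared.

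MYD88, the adaptor of the IL-1 and Toll-like receptors, averaged 11.8 ± 0.47 CPM in CTRL and 3.82 ± 0.29 in C/EBPδ-inducible cells at 24 h. Its log2 difference was -1.51 ± 0.12 at 0 h and -1.63 ± 0.11 at 24 h (adjusted p = 2.8e-13 and 1e-16), with no interaction called. TLR3, for double-stranded RNA, was at most 1.01 CPM in a group mean and was not called between the lines. It rose in the inducible line at 8 h (log2 1.96 ± 0.47, lost without inducible replicate 3 at 0 h) and in CTRL cells at 48 h (1.66 ± 0.43, lost without CTRL replicates 1 or 2 at 0 h or 3 at 48 h).

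Some untested members were present in single wells. CCL2 had 13 counts in CTRL replicate 1 at 8 h, 25 in replicate 1 at 48 h and 10 in inducible replicate 3 at 24 h, and at most 1 elsewhere. ICAM1 had 32, 18 and 10 counts in these same wells and at most 15 in the others. NEFH, a neurofilament gene, had 9 and 14 counts in the CTRL pair of wells and at most 1 in any other. IL1A had 15 and 16 counts in inducible replicate 3 at 8 and 48 h, where KRT5, a keratin of squamous epithelium, had 82 and 97. KRT5 was also high, with 40 and 102 counts, in replicate 2 at these times, where IL1A had 4 and 6. TLR4 had 10 counts in CTRL replicate 2 at 48 h, the well with 311 counts of LYZ against 25 to 62 in the other CTRL wells. In the inducible line they did not go together: replicate 2 at 0 h had 117 counts of LYZ and 0 of TLR4. Replicate 1 at 48 h had 9 of LYZ and 6 of TLR4. NEFH, KRT5 and LYZ were picked after their values were seen, and their part in these counts was not tested.

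Further genes of the same pathways were counted from 5 lists. At 24 h, 22.1% of all tested genes were higher and 25.7% lower in the inducible line, and the interaction was called upward for 3.24% and downward for 3.31%. Of 36 NF-kB pathway genes, 33 were tested at 24 h, of which 16 were higher and 7 lower in the inducible line, the latter close to the share of all genes. The interaction at 24 h was called for 4 upward and 1 downward of 33. The downward gene was BIRC2 (cIAP1), the neighbour of BIRC3, with a log2 interaction of -0.78 ± 0.06 (adjusted p = 8.6e-14). MAP3K14 (NIK), the kinase of the noncanonical pathway that cIAP proteins keep low, was upward at 0.38 ± 0.05, and MAP3K7 (TAK1) at 0.37 ± 0.05. MAP3K14 averaged 69.7 CPM in CTRL and 175 in inducible cells at 24 h, and its exons overlap MAP3K14-AS1 on the other strand. The median log2 difference of the list was 0.18 between the lines at 24 h. At 48 h, 7 were higher and 6 lower of 33, close to the shares of all genes (17.8 and 20.8%), with a median of 0.07.

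Among 33 genes of IL-1 and Toll-like receptor signalling, 17 were tested, 4 were higher and 6 lower at 24 h (median log2 -0.10, against 22.1 and 25.7% of all genes), so that the share higher was close to that of all genes, and the interaction was called for 2 upward and 0 downward. CASP1, the protease that matures IL-1β and IL-18, had 3, 11 and 4 counts in CTRL and 24, 18 and 28 in inducible libraries at 24 h. The CTRL counts at 24 h were too low to pass the filter on their own. Its log2 interaction of 2.86 ± 0.58 (adjusted p = 0.00041) is therefore a description. MAPK14 (p38α) had an interaction of 0.27 ± 0.05. Of 23 genes of gp130, JAK and STAT3 signalling, 5 were higher and 7 lower of 19 tested at 24 h (median log2 -0.09, against the same 22.1 and 25.7%), and the interaction was called for 5 upward and 2 downward of 20 (3.24 and 3.31% of all genes). OSMR, the oncostatin M receptor chain that pairs with gp130, was upward (0.91 ± 0.05, adjusted p = 3e-19) and its exons overlap RICTOR on the other strand. STAT3 was downward, at 451 CPM in CTRL and 231 in inducible cells at 24 h (interaction -0.57 ± 0.04, adjusted p = 1.3e-15), and so was its target PIM1 (-0.47 ± 0.13, adjusted p = 0.0091), which remained higher than in CTRL cells (line difference 1.21 ± 0.09).

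Complement and further acute-phase genes (33 listed) gave 3 higher and 4 lower of 11 tested at 24 h (median log2 -0.08, against 22.1 and 25.7% of all genes) and no interaction at 24 h among 12 tested. ORM1, the acute-phase protein orosomucoid, had 77, 57 and 71 counts at 24 h and 98, 172 and 119 at 48 h in inducible libraries against at most 2 in any CTRL library, so that it was at least 22.2-fold and 41.2-fold higher. CD55, which protects cells from complement, was higher (log2 1.37 ± 0.10) and the complement component C5 lower (-1.26 ± 0.09), the latter overlapping CNTRL on the other strand. Of 23 further chemokines and chemokine receptors, 2 were tested at 24 h, and the scavenging receptor ACKR3 was higher (1.42 ± 0.13, adjusted p = 6.5e-13), with no interaction called.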

How the data were processed

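RNA of 24 wells was depleted of ribosomal RNA and sequenced. The authors trimmed the reads (Trimmomatic 0.36 in the submitters' processing notes), aligned them to GRCh38 with Hisat2 (2.3.4.3 in those notes) and assigned them to Ensembl genes with HTSeq. The deposited file gives raw counts, unscaled, for each identifier. Strand and the handling of reads matching several genes are not given in the sources used here. Gene names and coordinates came from GENCODE release 44 (56558 of 60675 identifiers matched), and exons of 7 members overlap a gene on the other strand and of 8 a gene on the same strand, which counting could split.

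Counts were scaled with TMM and tested with the two-sided quasi-likelihood test of edgeR 4.0.16 in R 4.3.3, fitted to those groups that a comparison uses once filterByExpr had removed low genes, with Benjamini-Hochberg adjustment over all genes tested and an FDR of 0.01. The 13 comparisons were the lines at each time, later times against 0 h per line, and their interaction. The standard error is the log2 fold change divided by the square root of F. Folds against a group with 3 counts or fewer in every library are lower bounds, the mean CPM of the other group over that of 3 counts per library. The tests were checked on simulated counts with a fixed dispersion, in which no gene with few counts was changed. At 24 h, 96 of 100 2-fold changes were recovered between the lines and 82 of 100 in the interaction. All 100 4-fold changes were recovered in both. That check does not cover members with few counts. The wells were seeded in parallel, so that p-values measure the spread between wells, and with 3 against 3 an exact permutation test cannot reach 0.05. All 3 pairs of same-numbered wells deviated together (r over 0.1) only in CTRL cells at 24 and 0 h (mean r 0.16), where a replicate block left 7 members called. Inducible cells at 48 and 0 h had 1 such pair (r 0.155). Alternatives were RLE scaling, DESeq2 1.42.0, no filter, a minimum of 10 counts, a model of all 24 libraries, the block, an FDR of 0.05, other floors and leaving out each library.

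The members and lists were chosen with earlier results of these data known. All members were named. Values in every library were given for members with an interaction called and for the 10 with the largest estimated difference between the lines at 24 h, and up to 3 called genes were named per list. A further marker gene is not reported here.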

Additional observations from a re-analysis of the deposited data

Results flagged for a closer look

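In 10 members the change from 0 h differed between the lines by a test of the difference itself (log2 interaction, edgeR, FDR of 0.01). CXCL2 went up more in C/EBPδ-inducible cells at 8, 24 and 48 h, by 1.06, 0.96 and 0.95. CXCL5 did so at 24 h, by 0.56, and NFKBIA at 24 and 48 h, by 0.83 and 0.69. The CXCL8 interaction was 0.48 and 0.76 at 24 and 48 h, where the CTRL means had fallen. CTRL cells averaged 93.7, 65.1 and 57.3 CPM of CXCL8 at 0, 24 and 48 h, and inducible cells 231, 223 and 242. IL6R had the largest positive values among members above the floor in all groups, 1.48 at 24 h and 1.71 at 48 h. The change was lower in the inducible line for TLR5, at -1.68 and -1.59 at 24 and 48 h, for SOCS3, at -0.51 and -0.93, for TLR6, at -0.76 at 24 h, for BIRC3, at -0.41 at 24 h, and for IL6ST, at -0.37 at 48 h. Each group has 3 wells, so that single wells were not screened for outlying values.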

How the results depend on the processing

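Of 188 calls of members over the 13 comparisons, 162 were kept without each library in turn, 156 were kept under all other alternatives, and none of the 188 changed sign in any of them. DESeq2 lost 15 calls, a model of all 24 libraries 19, the replicate block 7, no filter 2, RLE scaling 1 and a minimum of 10 counts 0. For CTRL cells at 8 h against 0 h, 3 members were called, 5 with DESeq2, 5 with no filter, 9 with all 24 libraries, 0 with the replicate block, and between 0 and 8 when a library was left out. With the interaction at 8 h, 1 member was called, 8 at an FDR of 0.05, 3 with DESeq2, 6 with no filter, 2 with all 24 libraries, and between 1 and 6 when a library was left out. The interaction at 24 h was called for 9 members and for 5 in the model of all 24 libraries. A floor of 10 counts put 6 members at the floor throughout, and a floor of 0 put 0 there, against 2. The cause of these shifts was not tested. Outside CTRL cells at 24 h, the mean r of same-numbered wells was between -0.095 and 0.087 within 1 comparison of 2 groups. The block otherwise ended the SOCS3 interaction at 24 h and calls of single members within lines. RLE scaling shifted the all-gene median by at most 0.018 (log2). Depth limits the members under about 10 counts, whose counts carry wide counting error.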

Other observations

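IL23R lies next to IL12RB2 on chromosome 1, which was looked at after the IL23R counts were seen. IL12RB2, the receptor chain for IL-12, had 1, 2 and 4 counts at 24 h and 6, 2 and 1 at 48 h in CTRL libraries, where IL23R had 82, 100 and 94 and then 235, 216 and 205. PI3 (elafin), an antiprotease of epithelia, had at most 2 counts in CTRL libraries, and in C/EBPδ-inducible libraries 2, 4 and 1 at 0 h, 13, 52 and 42 at 8 h, 77, 68 and 84 at 24 h and 91, 124 and 74 at 48 h.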
